A study of Homo sapiens with 6 samples.

Results

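Fibroblast growth factor (FGF) receptors and 4 FGF ligands were examined in TC28a2 human chondrocyte cells treated with mocetinostat. The genes were the 4 receptors with a tyrosine kinase, *FGFR1*, *FGFR2*, *FGFR3*, and *FGFR4*, the receptor without a kinase, *FGFRL1*, and the ligands *FGF1*, *FGF2*, *FGF5*, and *FGF18*. They were selected by gene symbol, with no measured value in the rule, and each symbol matched 1 gene, giving 9 of the 60623 genes in the deposited count table. TC28a2 is an immortalized line of human chondrocytes, so all samples are cultures of a single line. Mocetinostat inhibits class I histone deacetylases (HDACs), the enzymes that remove acetyl groups from histones. Cells received 2 μM mocetinostat for 24 hours or the solvent DMSO for the same time, and no other treatment or genetic change was listed for either group. There were 3 samples per condition, which the study describes as coming from 3 independent experiments.

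FGFs are extracellular ligands that, together with heparan sulfate, bring receptor molecules into pairs, and the receptor kinases then phosphorylate each other and the docking protein FRS2, from which the RAS-MAPK cascade starts. In cartilage, FGFR3 restrains the proliferation of growth plate chondrocytes, and its activating mutations cause achondroplasia. FGF18 is a ligand of FGFR3 that favours cartilage matrix formation, whereas FGF2 acting through FGFR1 is known for matrix breakdown in human articular chondrocytes.

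The promoter windows of the 4 upregulated genes described here, and of *FGF1*, whose level did not pass the test, are shown so that the start regions can be compared by eye. They are RefSeq sequence on GRCh38.p14, 5′ to 3′ on the gene's strand, from 250 to 21 bases before the annotated start. Capitals mark the GC box, GGGCGG or CCGCCC, that is, the same letters on either strand. The windows lie at chr10:121598465-121598694 (minus strand, *FGFR2*), chr5:177086665-177086894 (plus strand, *FGFR4*), chr4:80266338-80266567 (plus strand, *FGF5*), chr5:171419397-171419626 (plus strand, *FGF18*), and chr5:142698091-142698320 (minus strand, *FGF1*).
FGFR2: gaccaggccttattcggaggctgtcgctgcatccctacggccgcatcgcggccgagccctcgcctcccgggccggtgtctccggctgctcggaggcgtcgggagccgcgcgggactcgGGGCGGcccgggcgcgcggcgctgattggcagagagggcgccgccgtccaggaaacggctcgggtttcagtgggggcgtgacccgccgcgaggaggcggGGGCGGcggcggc
FGFR4: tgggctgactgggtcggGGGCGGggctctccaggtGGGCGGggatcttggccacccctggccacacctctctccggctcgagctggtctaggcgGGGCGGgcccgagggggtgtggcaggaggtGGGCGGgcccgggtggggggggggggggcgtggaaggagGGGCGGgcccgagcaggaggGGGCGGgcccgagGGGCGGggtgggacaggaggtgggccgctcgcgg
FGF5: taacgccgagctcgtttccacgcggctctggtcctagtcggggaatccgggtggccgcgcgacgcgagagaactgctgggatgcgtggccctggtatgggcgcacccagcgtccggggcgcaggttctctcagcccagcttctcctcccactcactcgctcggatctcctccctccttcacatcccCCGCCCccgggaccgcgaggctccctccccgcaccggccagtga
FGF18: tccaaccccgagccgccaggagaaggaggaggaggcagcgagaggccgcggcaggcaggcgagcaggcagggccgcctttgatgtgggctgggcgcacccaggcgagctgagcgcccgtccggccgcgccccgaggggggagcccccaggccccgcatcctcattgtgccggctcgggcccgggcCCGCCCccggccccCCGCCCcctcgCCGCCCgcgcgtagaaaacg
FGF1: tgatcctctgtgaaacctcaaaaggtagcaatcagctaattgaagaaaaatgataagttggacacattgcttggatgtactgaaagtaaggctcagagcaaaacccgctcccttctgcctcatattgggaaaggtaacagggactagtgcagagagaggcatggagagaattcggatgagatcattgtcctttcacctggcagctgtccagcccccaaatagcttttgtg

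The *FGFR4* window held 7 GC boxes, that of *FGF18* held 3, that of *FGFR2* held 2, that of *FGF5* held 1, and that of *FGF1* held 0. A GC box was present in 39.6% of the 27305 RefSeq promoters over the same window. Of the 9 genes, 8 had a promoter in the RefSeq table, and among the 3 not shown *FGFR3* had 8 GC boxes, *FGFRL1* had 4, and *FGF2* had 3. The *FGFRL1* and *FGF2* windows overlap annotated exons of these genes, so that part of their boxes may lie within a transcript. The *FGF1* window also stood apart in base composition, with 45.7% G or C and 2 CpG dinucleotides, against 69.6% and 25 for *FGF5*, 77.4% and 37 for *FGFR2*, 78.3% and 28 for *FGF18*, and 79.6% and 19 for *FGFR4*. The other genes that did not pass the test did not share this: *FGF2* had 73.9% and 28, and *FGFRL1* had 67.8% and 19. *FGFR3* had 87.0% and 37. A relation between composition and change was not tested. The median over all promoters was 57.4% G or C and 9 CpG dinucleotides. Of the other motifs searched on both strands, the TATA box TATAAA, the AP-1 site TGANTCA, and the ETS core CCGGAA were in none of the 8 windows, against 10.8%, 6.26%, and 12.6% of all promoters. CCAAT was in *FGFR2* and *FGF1* (31.7% of all promoters), CACCC in *FGFR4*, *FGF2*, *FGF5*, and *FGF18* (51.1%), and CACGTG in *FGFRL1* (5.89%). No motif searched contains another or is part of it, and these matches describe letters in a window, not binding.

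The deposited values were raw counts of single reads per gene, with totals from 4873426 to 11031132 per DMSO sample and from 1619344 to 5089542 per mocetinostat sample. Levels are given as CPM, counts scaled to a common library size with edgeR's TMM factors, and a gene passed the test at an adjusted p under 0.05 in edgeR's quasi-likelihood test (Benjamini-Hochberg over the 13966 genes tested). A gene was called upregulated or downregulated when its absolute log2 fold change was also over 1, the study's threshold. The median log2 fold change of all genes tested was -0.0021. All 10 chondrocyte markers examined were detected, meaning at least 1 count in some sample, and 7 had enough counts to be tested. The summed level of the 10 was from 116 to 142 CPM with DMSO and from 262 to 302 CPM with mocetinostat. Most of the DMSO sum was *SOX9*, at a mean of 106 CPM with DMSO and 180 CPM with mocetinostat. All 6 fibroblast markers were detected at a sum of 4502 to 5451 CPM with DMSO and 4040 to 4406 CPM with mocetinostat. All 6 epithelial markers were detected at 1.03 to 2.35 and 31.5 to 40.2 CPM, but only 2 had enough counts to be tested. For blood and endothelial markers, 4 of 5 were detected, with *CD3E* at 0, at 3.54 to 8.12 and 8.68 to 9.53 CPM. Of these, 2 could be tested. None of the 4 sums overlapped between conditions: the fibroblast sum was lower, and the chondrocyte, epithelial, and blood and endothelial sums higher, in every mocetinostat sample. The lower fibroblast sum does not describe each marker: of the 5 tested, 3 rose and 2 fell. The part of these markers in the results was not tested. In bulk cultures, more expressing cells and more RNA per cell cannot be told apart.

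Of the 9 genes, 6 rose with mocetinostat and 0 fell, and the other 3 did not pass the test. Among all genes tested, 64.3% passed, 32.9% with a higher level and 31.4% with a lower one. All 4 kinase receptors rose, with *FGFR2* and *FGFR4* called upregulated, and so did the ligands *FGF5* and *FGF18*, both called. The 4 called genes compare with 20.2% of all genes tested. The same 6 genes had no overlap between conditions, all with mocetinostat higher, as did 33.7% of all genes tested. *FGFRL1*, *FGF1*, and *FGF2* had overlapping values. The median log2 fold change of the 9 genes was 0.98. These counts and the median include *FGF5* and *FGF18*, which passed the filter on low counts only through their mocetinostat samples. Of the genes with 20 counts or more in a DMSO sample, 4 of 5 receptors rose and 2 were called. The 1 such ligand, *FGF2*, did not pass.

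**Figure D1:**
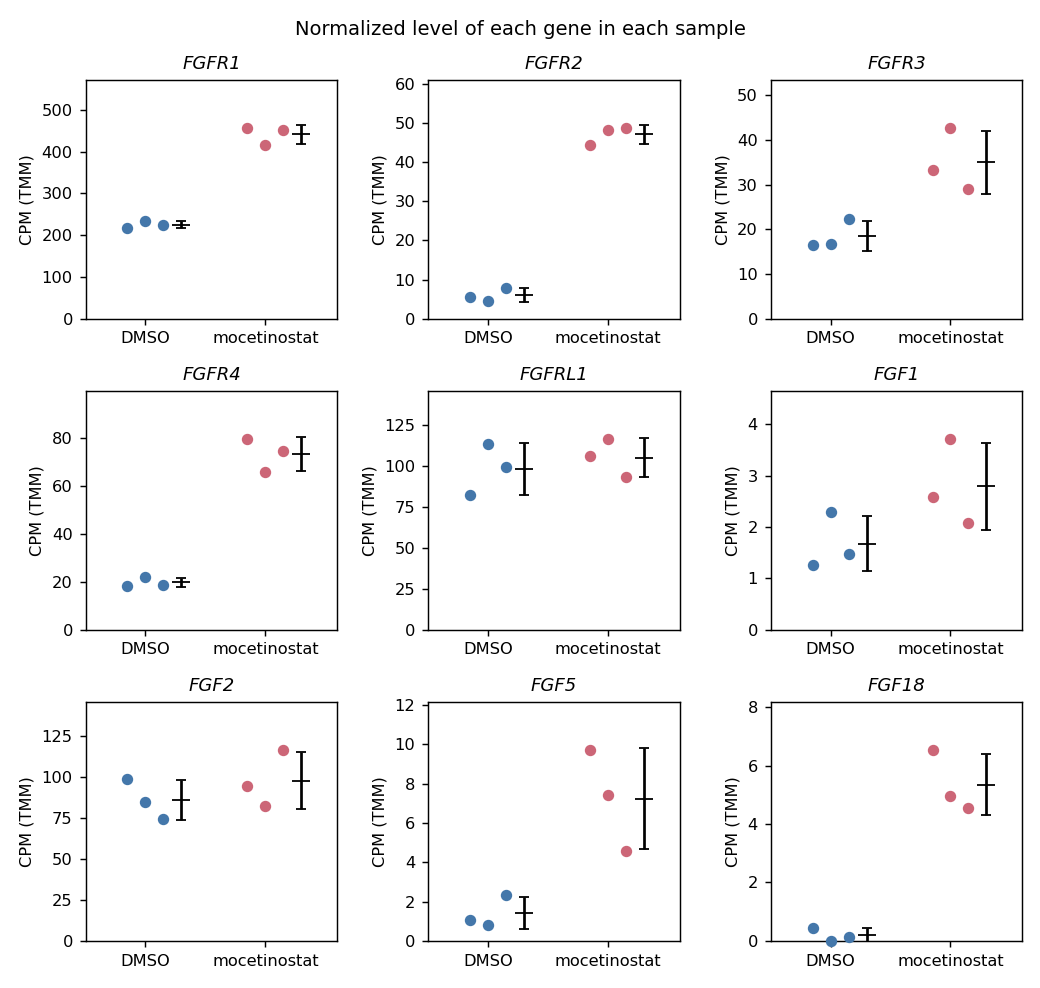
CPM of each of the 9 genes in the 6 samples, 1 panel per gene with its own vertical axis starting at 0. Points are samples, and bars are the mean ± SD of the 3 samples per condition (the lower end of the DMSO bar of *FGF18* falls below 0 and is not drawn). The mocetinostat samples of *FGFR1* to *FGFR4*, *FGF5*, and *FGF18* lie above all DMSO samples, and those of *FGFRL1*, *FGF1*, and *FGF2* overlap them.

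*FGFR1* (ENSG00000077782) encodes the main receptor of FGF2 in many connective tissue cells. It had 217, 234, and 224 CPM in the DMSO samples and 458, 416, and 451 CPM in the mocetinostat samples. The conditions were far apart compared with the spread within either. *FGFR1* rose from 225.2 ± 8.15 to 442 ± 22.6 CPM (SD, n = 3), which gave a log2 fold change of 0.98 (SE 0.08, adjusted p = 2.78e-18 by edgeR's quasi-likelihood test), which is 1.97-fold and just under the threshold for a call. When every sample had to hold 10 counts, its log2 fold change was 1.06 and it was called. The exons of *LETM2* on the opposite strand cover 0.8% of those of *FGFR1*, and *LETM2* had 6.05 CPM in both conditions. A second gene on the opposite strand, AC087623.1 (ENSG00000255201), covers 2.25% and had at most 1 count in a sample.

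*FGFR2* (ENSG00000066468; chromosome 10, 121478332 to 121598458, minus strand) encodes a receptor best known from epithelia and from bone formation. Its levels were 5.61, 4.58, and 7.96 CPM with DMSO and 44.4, 48.3, and 48.9 CPM with mocetinostat. The lowest mocetinostat sample was therefore several times the highest DMSO sample. *FGFR2* rose from 6.05 ± 1.73 to 47.2 ± 2.45 CPM (SD, n = 3), by 7.66-fold (log2 fold change 2.94, SE 0.20, adjusted p = 7.88e-22 by edgeR). It was the kinase receptor with the lowest level in DMSO-treated cells and the one with the largest fold change. Its b and c splice forms, which bind different ligands, are not separated by counts per gene.

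*FGFR3* (ENSG00000068078; chromosome 4, 1793293 to 1808872, plus strand), the growth plate receptor, had 16.5, 16.7, and 22.3 CPM with DMSO and 33.3, 42.8, and 29.0 CPM with mocetinostat. Its samples were more scattered within each condition than those of *FGFR1*, and the gap between the nearest samples of the conditions was small. *FGFR3* rose from 18.5 ± 3.29 to 35.03 ± 7.03 CPM (SD, n = 3), or by 0.90 on the log2 scale (SE 0.18, 95% interval 0.54 to 1.26, adjusted p = 1.14e-05 by edgeR). In libraries thinned to 1619344 counts each, the log2 fold change was 0.65 and the adjusted p was 0.105, so that the rise did not pass at that depth. Without DMSO replicate 3, the sample with 22.3 CPM, it was 1.03 and *FGFR3* was called. The table also holds 3 genes named as FGFR pseudogenes, all with 0 counts in every sample.

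*FGFR4* (ENSG00000160867; chromosome 5, 177086905 to 177098144, plus strand) encodes the receptor known above all from liver, where it responds to FGF19. It had 18.3, 22.1, and 18.9 CPM with DMSO and 79.7, 65.7, and 74.6 CPM with mocetinostat. Both conditions were tight, and the lowest treated sample lay well above the highest control. *FGFR4* rose from 19.7 ± 2.04 to 73.3 ± 7.09 CPM (SD, n = 3), by 3.80-fold (log2 fold change 1.93, SE 0.14, adjusted p = 3.53e-20 by edgeR).

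**Figure D2:**
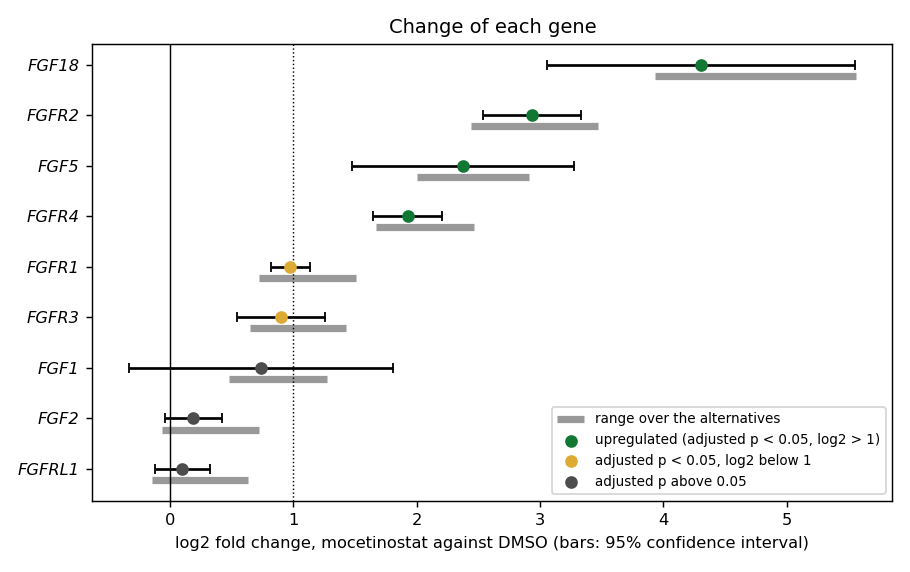
Log2 fold change of mocetinostat against DMSO for each of the 9 genes, with its 95% confidence interval from edgeR (black bar) and, below it, the range over the alternative settings (gray bar); the dotted line marks a log2 fold change of 1. The intervals of *FGFRL1*, *FGF1*, and *FGF2* include 0, and *FGF18* and *FGFR2* lie farthest to the right.

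The make-up of the kinase receptors shifted toward *FGFR4* and *FGFR2*. Counts were divided by the length of the merged exons of each gene before the 4 receptors were set to 100%. *FGFR1* was the main receptor throughout, with 62.8%, 62.2%, and 59.4% in the DMSO samples and 50.8%, 49.1%, and 52.1% in the mocetinostat samples. *FGFR4* made up 18.9%, 21.001%, and 17.8% with DMSO and 31.6%, 27.7%, and 30.8% with mocetinostat. The *FGFR2* share was 1.51% ± 0.406 with DMSO and 4.96% ± 0.400 with mocetinostat (SD, n = 3). Each of these receptors had shares that did not overlap between conditions, with differences in means of -10.8 percentage points for *FGFR1*, 10.8 for *FGFR4*, and 3.46 for *FGFR2*. With coding length in place of merged exons these differences were -10.3, 5.79, and 5.73 points, and with raw counts -9.67, 4.94, and 5.67 points, so the gain of *FGFR4* exceeded that of *FGFR2* clearly only with merged exons. The *FGFR4* share with DMSO was 19.2% by merged exons, 8.87% by coding length, and 7.32% of raw counts. For *FGFR1*, the mean share by coding length was 80.6% with DMSO and 70.4% with mocetinostat. Of raw counts it was 83.6% and 73.9%. On each scale *FGFR1*, *FGFR2*, and *FGFR4* gave p = 0.1 in a two-sided exact permutation test, the smallest p that 3 samples against 3 allow, so no share could pass 0.05. The share of *FGFR3* was 17.8% ± 2.71 and 14.3% ± 3.19 (SD, n = 3), with overlapping samples and an exact permutation p of 0.3. The ratio of *FGFR3* to *FGFR1* counts was 0.0821 ± 0.0150 and 0.0800 ± 0.0202, also overlapping, whereas that of *FGFR4* to *FGFR1* was 0.0875 ± 0.00602 with DMSO and 0.166 ± 0.00803 with mocetinostat.

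**Figure D3:**
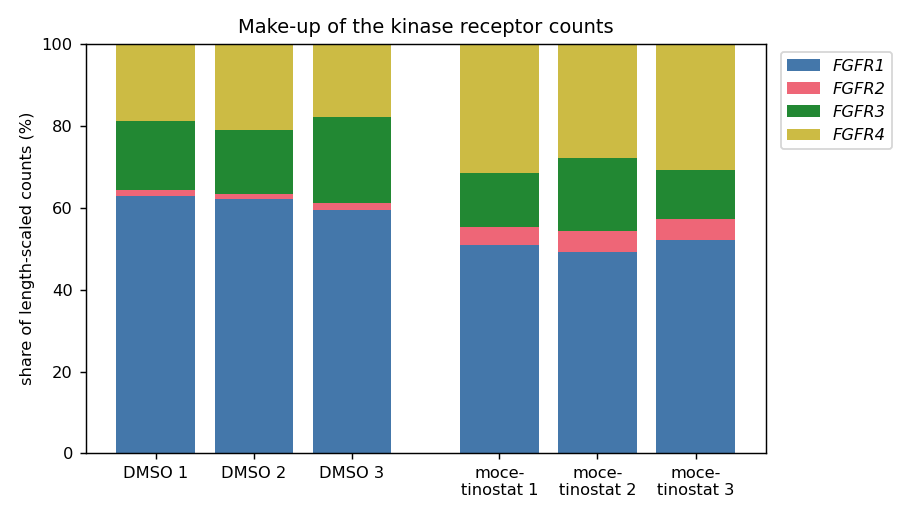
Share of each kinase receptor in the length-scaled counts of *FGFR1* to *FGFR4*, in percent, for each of the 6 samples, stacked to 100. The *FGFR1* share is from 59.4% to 62.8% with DMSO and from 49.1% to 52.1% with mocetinostat, and the shares of *FGFR4* and *FGFR2* are larger in all 3 mocetinostat samples.

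*FGFRL1* (ENSG00000127418; chromosome 4, 1009936 to 1026898, plus strand) encodes a receptor that binds FGFs and heparan sulfate but has no kinase domain. It had 81.9, 113, and 99.0 CPM with DMSO and 106, 117, and 92.8 CPM with mocetinostat, and the conditions overlapped. The means were 98.1 ± 15.8 and 105.0 ± 11.9 CPM (SD, n = 3), and the fold change was 1.07 with a 95% interval from 0.919 to 1.252 (adjusted p = 0.436 by edgeR), so a change of more than 1.252-fold lies outside the interval. The sign of this estimate was not stable, since it was 0.63 on the log2 scale (adjusted p = 2.04e-05) when counts were scaled to *GAPDH* and -0.15 without a filter on low counts. Per length, the summed kinase receptors were 0.956 ± 0.116 times *FGFRL1* with DMSO and 2.11 ± 0.262 times with mocetinostat, with no overlap. The sum itself was 21.3 ± 1.03 and 50.7 ± 1.63 CPM per kilobase of exon (RPKM; SD, n = 3). The sum and the ratio use merged exons only. By coding length the mean of *FGFR1* alone was 70.0 with DMSO against 64.9 for *FGFRL1*, so the ratio below 1 does not hold on that scale.

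Among the ligands, *FGF18* (ENSG00000156427; chromosome 5, 171419647 to 171457626, plus strand) had the largest fold change of the 9 genes, on few counts. The DMSO samples held 5, 0, and 1 counts of it, and the mocetinostat samples 33, 8, and 11. These are 0.452, 0.0, and 0.147 CPM against 6.54, 4.96, and 4.56 CPM, so that every treated sample was far above every control. *FGF18* rose from 0.200 ± 0.231 to 5.35 ± 1.05 CPM (SD, n = 3), with a fitted log2 fold change of 4.30 (SE 0.62, 95% interval 3.06 to 5.55, adjusted p = 8.68e-09 by edgeR). The ratio of the summed counts, 52 against 6, scaled to the library sizes, was 21.6 with an exact 95% counting interval from 9.30 to 61.6. The size of the change rests partly on the 5 counts in DMSO replicate 1, without which the fitted log2 fold change was 5.56.

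*FGF5* (ENSG00000138675; chromosome 4, 80266639 to 80336680, plus strand), known as a regulator of hair growth, had 12, 4, and 16 counts in the DMSO samples against 49, 12, and 11 in the mocetinostat samples. In CPM these were 1.09, 0.833, and 2.36 against 9.71, 7.44, and 4.56, which do not overlap. *FGF5* rose from 1.43 ± 0.817 to 7.24 ± 2.58 CPM (SD, n = 3), by 5.19-fold (log2 fold change 2.38, SE 0.45, adjusted p = 4.28e-06 by edgeR). *CFAP299*, which shares 2.28% of the exon bases of *FGF5* on the same strand, had at most 3 counts in any sample. Neither *FGF5* nor *FGF18* was measured well enough in DMSO-treated cells to pass the filter there: the filter asked for 2.01 CPM in 3 samples, which 1 DMSO sample reached for *FGF5* and 0 for *FGF18*. Of the 1263 tested genes with under 20 counts in every DMSO sample, a limit set after the values were seen, 91.2% were called upregulated, against 13.2% of the others. The calls of *FGF5* and *FGF18* therefore match what most such genes showed.

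*FGF1* (ENSG00000113578; chromosome 5, 142592178 to 142698070, minus strand), a ligand that can bind all the kinase receptors and is made without a signal peptide, belonged to the same low-count class, with 1 DMSO sample over the filter limit, but did not pass the test. Its counts were 14, 11, and 10 in the DMSO samples against 13, 6, and 5 in the mocetinostat samples, or 1.27, 2.29, and 1.47 CPM against 2.58, 3.72, and 2.07 CPM. Mocetinostat replicate 3 was within the DMSO range. The means were 1.68 ± 0.541 and 2.79 ± 0.843 CPM (SD, n = 3), with a log2 fold change of 0.74, a 95% interval from -0.33 to 1.81, and an adjusted p of 0.229 by edgeR, an interval that at this depth runs from a fall to a rise of more than 2-fold. When scaled to *GAPDH*, the log2 fold change was 1.27 (adjusted p = 0.0341).

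*FGF2* (ENSG00000138685; chromosome 4, 122826682 to 122898236, plus strand), also made without a signal peptide and stored in the cartilage matrix, was the most abundant of the 4 ligands. It had 98.9, 85.0, and 74.6 CPM with DMSO and 94.8, 82.4, and 116.9 CPM with mocetinostat. Only mocetinostat replicate 3 lay above the DMSO range. The means were 86.1 ± 12.2 and 98.02 ± 17.5 CPM (SD, n = 3), and the fold change was 1.14 (95% interval 0.971 to 1.34, adjusted p = 0.150 by edgeR). Without DMSO replicate 1 the log2 fold change was 0.29 with an adjusted p of 0.0174, when every sample had to hold 10 counts it was 0.27 with an adjusted p of 0.0423, with *GAPDH* scaling it was 0.73 with an adjusted p of 2.34e-06, and without a filter it was -0.065. The 3′ part of *FGF2* is covered by *NUDT6*, a gene on the opposite strand also known as the antisense transcript of *FGF2*, over 11.8% of the exon bases of *FGF2*. *NUDT6* rose from 6.37 ± 1.28 to 21.1 ± 5.74 CPM (log2 fold change 1.64, SE 0.25, adjusted p = 3.93e-08 by edgeR), and its ratio to *FGF2* counts was 0.0755 ± 0.0223 with DMSO and 0.218 ± 0.0617 with mocetinostat. Whether the counting used strand is not given in the sources used here, so reads of the shared stretch cannot be assigned with certainty.

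Set in order of level per length (RPKM over merged exons), DMSO-treated cells had *FGFRL1* at 22.6 ± 3.65, *FGFR1* at 13.1 ± 0.474, *FGF2* at 12.7 ± 1.79, *FGFR4* at 4.10 ± 0.425, and *FGFR3* at 3.81 ± 0.678 (SD, n = 3). *FGFR1* and *FGF2* overlapped, as did *FGFR4* and *FGFR3*, and the last 4 genes, *FGF1*, *FGFR2*, *FGF5*, and *FGF18*, lay between 0.337 and 0.1001 RPKM with each overlapping the next. In mocetinostat-treated cells the order was *FGFR1* at 25.7 ± 1.31, *FGFRL1* at 24.2 ± 2.73, *FGFR4* at 15.2 ± 1.47, *FGF2* at 14.4 ± 2.57, and *FGFR3* at 7.22 ± 1.45 RPKM. There *FGFR1* overlapped *FGFRL1*, and *FGFR4* overlapped *FGF2*, whereas *FGFR4* and *FGFR3* were apart. *FGF18* at 2.68 ± 0.525 RPKM came above *FGF5* at 1.21 ± 0.434 and *FGF1* at 0.560 ± 0.169, and overlapped *FGFR2* at 2.51 ± 0.130. The order depends on the length used: divided by coding length instead, *FGF2* led in DMSO-treated cells at 99.7 ± 14.1, ahead of *FGFR1* at 70.0 ± 2.53 and *FGFRL1* at 64.9 ± 10.5. With mocetinostat and coding length, *FGFR2* at 15.7 ± 0.812 stood above *FGFR3* at 13.5 ± 2.71 and overlapped it, and *FGF5* at 8.84 ± 3.15 stood above *FGF18* at 8.62 ± 1.69 and overlapped it.

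The genes whose log2 CPM over the 6 samples were most like those of *FGF18*, the called gene with the largest fold change, were *DENND5A* (Pearson's r 0.999), *CAMK4* (0.998), and *GPNMB* (0.998). For *FGFR4*, the called gene with the smallest fold change, they were *RTN4RL2* (0.9998), *FGFR1* (0.9993), and *MTSS1* (0.9991). These values mostly follow the difference between the conditions, since 13.2% of the tested genes had an r over 0.95 with *FGF18* and 16.5% with *FGFR4*.

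The other 14 secreted FGF ligands were hardly measured. None had enough counts to be tested, and 8 of them had at most 3 counts in every sample. *FGF19*, the ligand that FGFR4 binds together with the coreceptor β-Klotho, had 0, 0, and 1 counts in the DMSO samples against 10, 3, and 1 in the mocetinostat samples. *FGF23*, a phosphate-regulating hormone, had 0, 0, and 1 counts against 14, 2, and 0. Both had most of their reads in mocetinostat replicate 1, the deepest of the treated libraries. *FGF9*, a further ligand of FGFR3, which was chosen after its values were seen, had 0 counts in all DMSO samples and 5, 5, and 4 counts in the mocetinostat samples. Its mean treated level was 4.29 times a floor of 3 counts per DMSO library. *FGF13*, which stays inside the cell and acts on sodium channels rather than on FGF receptors, was the only homologous factor tested and had 5, 1, and 1 counts in the controls against 40, 8, and 9 in the treated samples. It was called upregulated (log2 fold change 4.17, SE 0.60, adjusted p = 5.69e-09 by edgeR) and is of the same low-count class as *FGF18*. Among the other homologous factors, *FGF12* had 25, 4, and 11 counts in the controls against 6, 3, and 5 in the treated samples, and *FGF14* had 0, 2, and 0 and 13, 1, and 1.

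Outside the FGF and FGFR families, 73 genes of the pathway were listed by role, and 65 of them were tested. Of these, 39 rose, 17 fell, and 9 did not pass, and 26 were called upregulated and 4 downregulated, which are to be read against the 20.2% and 8.18% of all genes tested. Among the 19 coreceptors and feedback inhibitors tested 18 rose and 0 fell, and among the 21 adaptor and RAS-MAPK genes tested 4 rose and 12 fell, beside 32.9% and 31.4% of all genes tested. Some of these rises came from genes with under 20 counts in every DMSO sample, the class in which most genes were called. Outside that class, 5 of 5 coreceptors and 9 of 10 feedback inhibitors rose. Joining the lists in these pairs was not planned beforehand, and the lists were compared by these counts alone.

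Of 12 coreceptors, binding proteins, and receptor partners, 8 were tested, all 8 rose, and 7 of the 8 were called, the median log2 fold change being 2.84. *FLRT1*, *FLRT2*, and *FLRT3* among them had under 20 counts in every DMSO sample, the class in which most genes were called, and of the other 5, 4 were called, with a median of 2.48. That median is the value of *FGFBP3*, which had 2.17, 0.208, and 1.18 CPM in the DMSO samples, mostly below the filter's 2.01 CPM. Its call therefore shares the limit given for *FGF5*. *NCAM1*, a cell adhesion molecule that binds FGFR1, rose from 27.6 ± 3.99 to 223 ± 10.4 CPM (log2 fold change 3.03, SE 0.11, adjusted p = 1.00e-36 by edgeR). *ANOS1*, which encodes anosmin, a matrix protein that binds FGFR1 and heparan sulfate, rose from 4.82 ± 0.699 to 57.9 ± 3.00 CPM. *HSPG2*, which encodes perlecan, the heparan sulfate proteoglycan that holds FGF2 around chondrocytes, rose with a log2 fold change of 1.14 (SE 0.11), and *FLRT2*, a membrane protein of a family that binds FGF receptors, with one of 2.72 (SE 0.50). The Klotho coreceptors *KL* and *KLB* were not tested, with at most 1 and 7 counts in a sample.

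Of 11 receptor-proximal adaptors, 2 rose, 6 fell, and 3 did not pass, with a median of -0.24. *FRS2*, the docking protein named above, had 32.6 ± 5.62 and 30.8 ± 1.604 CPM (SD, n = 3; adjusted p = 0.708 by edgeR). Its relative *FRS3* was the only adaptor called upregulated, with a log2 fold change of 1.02 (SE 0.38, adjusted p = 0.0150), and it lost that call in 7 of 15 alternatives. Of 10 genes of the RAS-MAPK cascade, 2 rose, 6 fell, and 2 did not pass, with a median of -0.48, and *NRAS* was the only called gene, at 110 ± 4.23 CPM with DMSO and 52.3 ± 0.808 CPM with mocetinostat (log2 fold change -1.07, SE 0.12). Its call was lost in 3 of 15 alternatives: with *GAPDH* scaling (-0.53), when every sample had to hold 10 counts (-0.99), and by glmTreat (adjusted p = 0.445). These directions hold relative to the TMM scaling: with counts scaled to *GAPDH*, which moved the median of all genes by 0.54, 6 adaptors passed with a higher and 2 with a lower level (median 0.29), and 3 and 2 RAS-MAPK genes (median 0.055).

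Of 11 feedback inhibitors, 10 rose, 8 of them called upregulated, 0 fell, and 1 did not pass, with a median of 1.37. *SPRY1* had under 20 counts in every DMSO sample, and of the other 10, 9 rose and 7 were called, with a median of 1.31. *DUSP5*, a phosphatase of nuclear ERK, rose from 16.6 ± 0.846 to 94.1 ± 7.93 CPM (log2 fold change 2.49, SE 0.14, adjusted p = 1.72e-26 by edgeR). *DUSP6*, a phosphatase of cytoplasmic ERK that FGF signalling induces, rose from 32.2 ± 3.10 to 94.6 ± 4.98 CPM, and a gene on the opposite strand covers 28.6% of its exon bases. *IL17RD*, the membrane inhibitor also called Sef, rose with a log2 fold change of 2.89 (SE 0.20), and *DUSP4* with one of 1.37 (SE 0.12). The 1 gene that did not pass was *CBL*, a ubiquitin ligase, with 121 ± 11.01 and 113 ± 3.24 CPM.

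The 8 ETS and early target genes moved in both directions, with 6 that rose and 2 that fell, and a median of 0.56. *ETV1*, an ETS factor, rose from 1.32 ± 0.190 to 20.1 ± 4.403 CPM (log2 fold change 3.89, SE 0.33, adjusted p = 2.56e-17 by edgeR). The early genes *FOS* and *EGR1* rose with log2 fold changes of 2.44 (SE 0.25) and 1.23 (SE 0.13). *FOSL1*, another early gene of the FOS family, fell from 173 ± 27.5 to 63.0 ± 8.84 CPM (log2 fold change -1.48, SE 0.11), and *SPHK1*, a sphingosine kinase, fell with one of -1.11 (SE 0.15).

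Among 10 growth plate genes around *FGFR3*, 8 were tested, of which 7 rose, 5 of them called upregulated, and 1 fell, with a median of 1.62. *NPPC* and *NPR3* had under 20 counts in every DMSO sample, and of the other 6, 5 rose and 3 were called, with a median of 1.16. *CDKN1A*, the cell cycle inhibitor p21, through which FGFR3 is known to slow chondrocyte division, rose from 58.1 ± 5.09 to 419 ± 32.3 CPM (log2 fold change 2.86, SE 0.09, adjusted p = 4.06e-40 by edgeR). *SNAI1*, a transcription factor that acts after FGFR3, rose with a log2 fold change of 1.83 (SE 0.11). *NPPC*, which encodes C-type natriuretic peptide, the hormone that opposes FGFR3 in the growth plate, had 0, 2, and 2 counts in the controls against 22, 9, and 6 in the treated samples, at least 9.28-fold higher against the floor of 3 counts per library. Its clearance receptor *NPR3* rose from 0.527 ± 0.170 to 18.3 ± 2.13 CPM, and its signalling receptor *NPR2* fell from 35.05 ± 4.24 to 20.05 ± 3.07 CPM (log2 fold change -0.78, SE 0.17, adjusted p = 6.46e-05 by edgeR), a fall that did not pass with *GAPDH* scaling.

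Of 11 genes of heparan sulfate synthesis, which make the sugar chains that FGFs need to bind their receptors, 9 were tested, and 4 rose, 2 fell, and 3 did not pass, with a median of 0.23. *HS6ST1*, a sulfotransferase of the chain, rose from 22.9 ± 3.72 to 65.4 ± 7.96 CPM (log2 fold change 1.47, SE 0.15), and *GLCE*, the epimerase, rose with one of 1.13 (SE 0.10). *NDST1*, which starts sulfation of the chain, fell from 189 ± 18.4 to 77.2 ± 4.99 CPM (log2 fold change -1.28, SE 0.10, adjusted p = 2.84e-18 by edgeR). With counts scaled to *GAPDH*, 7 of the 9 passed with a higher and 1 with a lower level (median 0.76), and *NDST1* was no longer called (-0.75). Of the genes named in these lists, *FLRT1*, *FLRT2*, *FLRT3*, *SPRY1*, *ETV1*, *NPPC*, and *NPR3* had under 20 counts in every DMSO sample, so their calls share the limit given for *FGF18*.

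**Figure D4:**
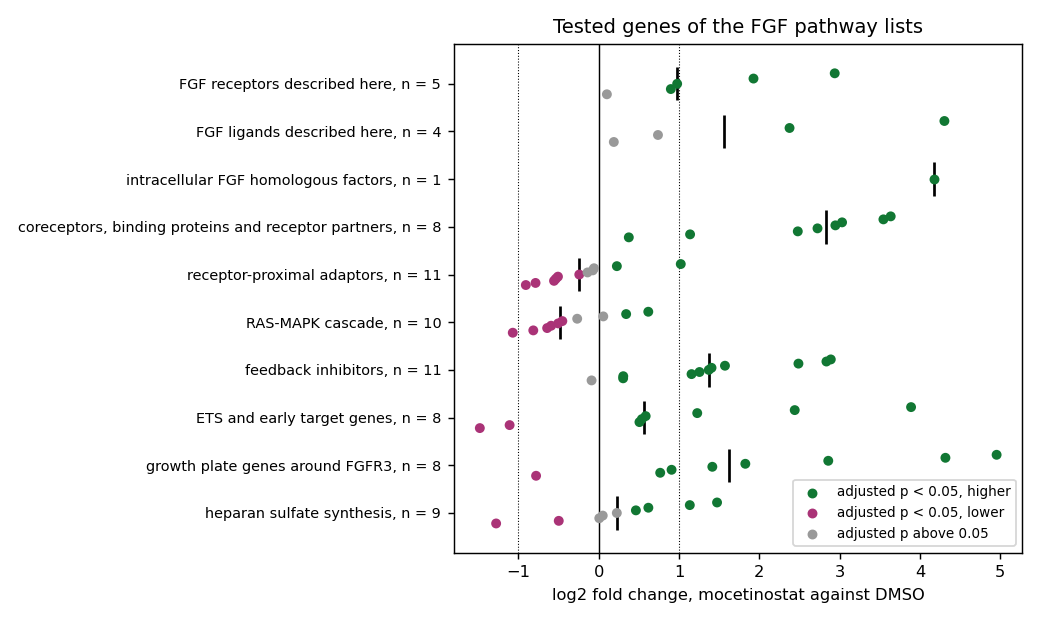
Log2 fold change of each tested gene of the FGF receptors, ligands, and pathway lists, 1 row of points per list, with a vertical bar at each list's median, dotted lines at -1 and 1, and colors for whether and in which direction the gene passed the test. Points of the coreceptor and feedback lists lie mostly to the right of 0, and those of the adaptor and RAS-MAPK lists mostly to the left, with the TMM scaling used here.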

How the data were processed

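RNA-Seq was performed by the study on total RNA of the 6 TC28a2 samples, as single reads of 100 bases. The authors trimmed adapters, removed ribosomal RNA reads, aligned the rest to GRCh38 with STAR 2.6.1d, and counted reads per gene with featureCounts 1.6.4 (versions per the submitters' processing notes). The deposited values are raw counts per gene, without normalization. Strand use and the treatment of reads that map to several genes are not given in the sources used here.

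From these counts, edgeR 4.0.16 (limma 3.58.1, R 4.3.3) computed TMM factors, kept 13966 genes with filterByExpr at a minimum count of 10, and compared mocetinostat with DMSO by its quasi-likelihood test, with treatment as the only term and Benjamini-Hochberg adjustment. The common biological coefficient of variation was 9.3%. p-values weigh the difference between conditions against the spread among these cultures of a single line, estimated with information shared across genes. CPM and RPKM use the TMM-scaled library sizes, and lengths, positions, and overlaps come from GENCODE 44 on GRCh38, which held 99.5% of the gene identifiers. Promoter sequences come from RefSeq. Chi-square statistics of replicate pairs were 1.91 or more per degree of freedom, a spread beyond counting error, which does not show its source. Each sample was counted as a replicate because the study describes 3 independent experiments. Ratio intervals and the floor of 3 counts per library cover counting error only, as reads carry no molecular identifiers. The fit was also run on simulated counts with 200 changed genes, whereas 3969 genes were called in these data. No outcome of that run is given here, so it is not evidence for the fit. This holds also for genes with few counts, such as *FGF1*, *FGF5*, and *FGF18*. Python 3.11.15, pandas 2.3.3, and matplotlib 3.10.9 made summaries and plots.

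Although the rule for the 9 genes uses no values, they and all lists were chosen with earlier results of these data known. Named in the text were all 9 genes, the genes whose exons overlap theirs, FGF genes with at least 10 counts in a sample, the 3 genes most correlated with the called genes of highest and lowest change, *GAPDH*, and, per list and direction, up to 4 called genes with the smallest p. *FGF9*, *FGFBP3*, *FLRT1*, *FLRT3*, *KL*, *KLB*, *FRS2*, *SPRY1*, *CBL*, *NPR2*, *SOX9*, and *CD3E* were named outside this rule after their values were seen. Alternatives were DESeq2 1.42.0, glmTreat, other scalings (RLE size factors, library size alone, *GAPDH*), other filters (none, or 10 counts in every sample), a replicate block, thinned libraries, leaving out each sample in turn, and, for receptor shares, raw counts and coding length.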

Additional observations from a re-analysis of the deposited data

How the results depend on the processing

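Of the 9 genes, 4 were called upregulated under DESeq2, RLE size factors, library size only, no filter, and glmTreat, 7 when counts were scaled to *GAPDH*, 3 when every sample had to hold 10 counts, and 2 in libraries thinned to 1619344 counts each, where, as with that filter, *FGF1*, *FGF5*, and *FGF18* had too few counts to be tested. *GAPDH* itself fell with mocetinostat (log2 fold change -0.53 with TMM factors), so that scaling to it raised the median log2 fold change of all genes by 0.54, and leaving out the filter lowered it by 0.25. Over all genes, 4425 were called upregulated and 284 downregulated with *GAPDH* scaling (94.0% of the calls upregulated, against 71.2% with TMM factors), 3201 and 2120 without a filter (60.2%), and 1620 and 704 when every sample had to hold 10 counts, and 465 were called downregulated by glmTreat. Estimates that did not pass the test changed sign for *FGFRL1*, to -0.15 without a filter and -0.040 without DMSO replicate 1, and for *FGF2*, to -0.065 without a filter. Leaving out the samples singly, 4 to 5 of the 9 genes were called upregulated, the highest number without DMSO replicate 3, *FGFRL1* ranged from -0.040 to 0.18, and 2842 to 3216 of all genes were called upregulated and 1173 to 1267 downregulated. The log2 fold changes of *FGFR2*, *FGFR4*, and *FGF18* ranged over all alternatives from 2.44 to 3.47, 1.67 to 2.46, and 3.94 to 5.56. Calls of *HSPG2*, *EGR1*, and *GLCE* were lost without a filter and by glmTreat, of *SPHK1* with *GAPDH* scaling and by glmTreat, and of *FOSL1* with *GAPDH* scaling. Depth limits *FGF1*, *FGF5*, and *FGF18*, which had at most 16 counts in any DMSO sample.

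Deviations of samples with the same replicate number correlated at 0.0078, 0.012, and -0.016. Counting error lowers such correlations, so these values cannot exclude that samples were paired by experiment, which is not stated in the sources used here. With the replicate block, 2798 of all genes were called upregulated and 1133 downregulated, and 4 of the 9 genes were called upregulated.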
